A study of Mus musculus with 6 samples.

Results

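The Schlafen (Slfn) genes lie side by side on mouse chromosome 11, and their H3K9me3 regions were examined in endothelial progenitor cells (EPCs). The regions were taken by name: every region that the authors had assigned to a gene whose symbol begins with Slfn, 12 of the 58511 regions in the deposited tables, with 0 such regions on other chromosomes. They belonged to 6 genes, with 1 region at Slfn5, 2 at Slfn9, 1 at Slfn8, 2 at Slfn10-ps, 4 at Slfn2 and 2 at Slfn1. The rule also took in Slfn10-ps, a pseudogene, while Slfn3, Slfn4 and Slfn14 had 0 regions. The cluster was chosen by the measured H3K9me3 values of 1 of its regions, assigned to Slfn9 at chr11:83000723-83001122 (mm10): of 7897 regions tested between ovariectomized and intact females, it was the only region past an adjusted p of 0.05. Its values are therefore described without a test, and each of the other Slfn regions is set against it.

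Bone marrow EPCs came from C57BL/6J mice aged 8 weeks: males (M-EPC), females (F-EPC) and females ovariectomized at about 35 days of age (OVX-EPC). Cells were depleted of lineage-positive cells, selected with magnetic beads for Sca-1 and CD31, and expanded in endothelial growth medium. H3K9me3 was mapped by CUT&Tag, in which antibody-bound Tn5 transposase cuts and tags the DNA around the mark, with 2 libraries per group. No label ties the 2 libraries of a group to separate animals, so p-values measure the spread between these libraries, which may be technical.

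H3K9me3 is trimethylation of lysine 9 of histone H3, a mark of heterochromatin that silences repeats and is also laid over parts of some clustered gene families. Schlafen genes take their name from the German for sleeping, after the growth arrest that Slfn1 causes in developing T cells. Many of them are induced by interferon, Slfn2 is known to keep T cells quiescent, and the longer members carry a helicase-like domain. The family expanded by local duplication, so neighbouring genes and the sequence between them resemble one another.

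Depth limits the precision of every value. Libraries held 288353 to 573821 reads in all regions, and the median covered region held 5 to 8 reads per library. Both F-EPC libraries lacked reads over part of the genome, but chromosome 11 was covered in all 6 libraries, so F-EPC comparisons were confined to the 26999 covered regions. Of the genes that define these cells, Cdh5, Pecam1, Kdr and Tek had 15, 4, 1 and 1 regions and Ly6a (Sca-1), Cd34 and Kit had 0. Of the leukocyte genes, Itgam had 1 region and Ptprc and Cd3e had 0. H3K9me3 does not measure RNA, so these markers do not check the identity of the cells.

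The region chr11:83000723-83001122 lay between 2 genes that are both transcribed from the minus strand. It was 8893 bp upstream of the transcription start site (TSS) of Slfn9 and 1036 bp past the 3′ end of Slfn8, and it overlapped no GENCODE M21 gene. The authors' label for it, 1 to 2 kb downstream, thus matched the end of Slfn8, although the gene name given is Slfn9. It is called the intergenic Slfn9 region here. The other Slfn9 region, chr11:82999159-82999558, lay in the same interval, 7329 bp upstream of the Slfn9 TSS and 2600 bp past the end of Slfn8, and is called the neighbouring Slfn9 region.

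Both regions had a partner of similar sequence at the next copy of the duplication, past the 3′ end of Slfn10-ps, where the authors assigned the regions to Gm11425. The partner of the intergenic Slfn9 region (chr11:83026088-83026487) lay 25.4 kb away, 1643 bp past the end of Slfn10-ps, and the aligned 403 bp were 87.3% identical. The partner of the neighbouring Slfn9 region (chr11:83024375-83024774) lay 25.2 kb away, 3356 bp past that end, with 96.75% identity over 400 bp. The matching stretches overlapped these partner regions by 337 and 282 bp, so the counted regions match in part only. Counting these, the locus held 3 other matches of the intergenic Slfn9 region and 11 of the neighbouring one. These sequences are shown because the difference that the cluster was chosen for stood at 1 copy and was smaller at the other. They are from the plus strand of GRCm38, and capitals mark the bases that differ from the partner, 32 of 292 in the intergenic Slfn9 region and 12 of 292 in the neighbouring one.

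Intergenic Slfn9 region, chr11:83000775-83001066: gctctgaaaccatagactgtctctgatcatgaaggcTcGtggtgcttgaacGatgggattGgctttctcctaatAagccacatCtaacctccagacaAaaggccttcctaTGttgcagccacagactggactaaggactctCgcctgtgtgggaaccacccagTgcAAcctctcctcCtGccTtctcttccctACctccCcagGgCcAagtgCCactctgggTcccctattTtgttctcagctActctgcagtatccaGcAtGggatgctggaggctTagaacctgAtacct

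Its partner near Gm11425, chr11:83026082-83026372: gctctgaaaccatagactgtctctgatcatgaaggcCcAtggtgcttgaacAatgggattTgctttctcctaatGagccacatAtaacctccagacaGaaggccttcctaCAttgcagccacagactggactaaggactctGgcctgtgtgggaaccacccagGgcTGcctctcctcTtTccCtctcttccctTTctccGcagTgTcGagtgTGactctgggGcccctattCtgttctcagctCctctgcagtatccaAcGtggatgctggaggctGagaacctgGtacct

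Neighbouring Slfn9 region, chr11:82999211-82999502: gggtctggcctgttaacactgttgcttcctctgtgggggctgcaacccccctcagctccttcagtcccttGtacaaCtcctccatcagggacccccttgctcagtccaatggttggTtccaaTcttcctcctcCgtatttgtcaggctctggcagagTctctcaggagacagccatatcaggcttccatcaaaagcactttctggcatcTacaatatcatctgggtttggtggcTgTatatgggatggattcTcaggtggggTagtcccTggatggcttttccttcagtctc

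Its partner near Gm11425, chr11:83024545-83024836: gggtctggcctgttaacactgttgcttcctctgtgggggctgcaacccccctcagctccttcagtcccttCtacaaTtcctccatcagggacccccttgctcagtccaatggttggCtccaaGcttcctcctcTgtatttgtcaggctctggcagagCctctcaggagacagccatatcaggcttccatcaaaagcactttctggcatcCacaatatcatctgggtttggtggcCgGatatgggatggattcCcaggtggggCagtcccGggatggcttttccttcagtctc

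Reads were paired and 25 bases long, so the share of 25-base words with another exact copy in the genome was computed for each region. It was 26.3% in the intergenic Slfn9 region and 71.5% in the neighbouring region. Only 2.93% of the words of the intergenic Slfn9 region recurred in its partner, compared with 37.2% for the neighbouring pair. In the promoter regions of Slfn5, Slfn8, Slfn2 and Slfn1 the share was 0%.

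The intergenic Slfn9 region carried the most H3K9me3 of the 12 Slfn regions in M-EPCs and F-EPCs but not in OVX-EPCs. It held 32 and 36 reads (M-EPC), 41 and 39 (F-EPC), and 8 in each OVX-EPC library. The summed reads were 68 (M-EPC; exact 95% Poisson interval 52.8 to 86.2), 80 (F-EPC; 63.4 to 99.6) and 16 (OVX-EPC; 9.15 to 26.0), where the intervals cover counting error only. Both OVX-EPC libraries were thus below every M-EPC and F-EPC library, and the replicates of each group lay close together. The region was chosen on the OVX-EPC and F-EPC values, which favours both traits in those groups.

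On a scale common to the 6 libraries (reads divided by each library's size factor) the level of the intergenic Slfn9 region was 36.7 ± 2.43 (M-EPC), 32.9 ± 2.07 (F-EPC) and 8.31 ± 0.328 (OVX-EPC; SD, n = 2). The log2 fold change of the authors' values, computed on log2(value + 1), was -1.86 ± 0.334 (SE) in OVX-EPC against F-EPC, a 3.64-fold lower signal. Against M-EPC it was -1.96 ± 0.342, or 3.90-fold lower. Both comparisons use the same OVX-EPC libraries, and the first is the one that chose the region. In F-EPC against M-EPC the log2 fold change was -0.15 ± 0.267, a direction that turned to 0.055 with TMM scaling factors and a size below its SE.

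**Figure D1:**
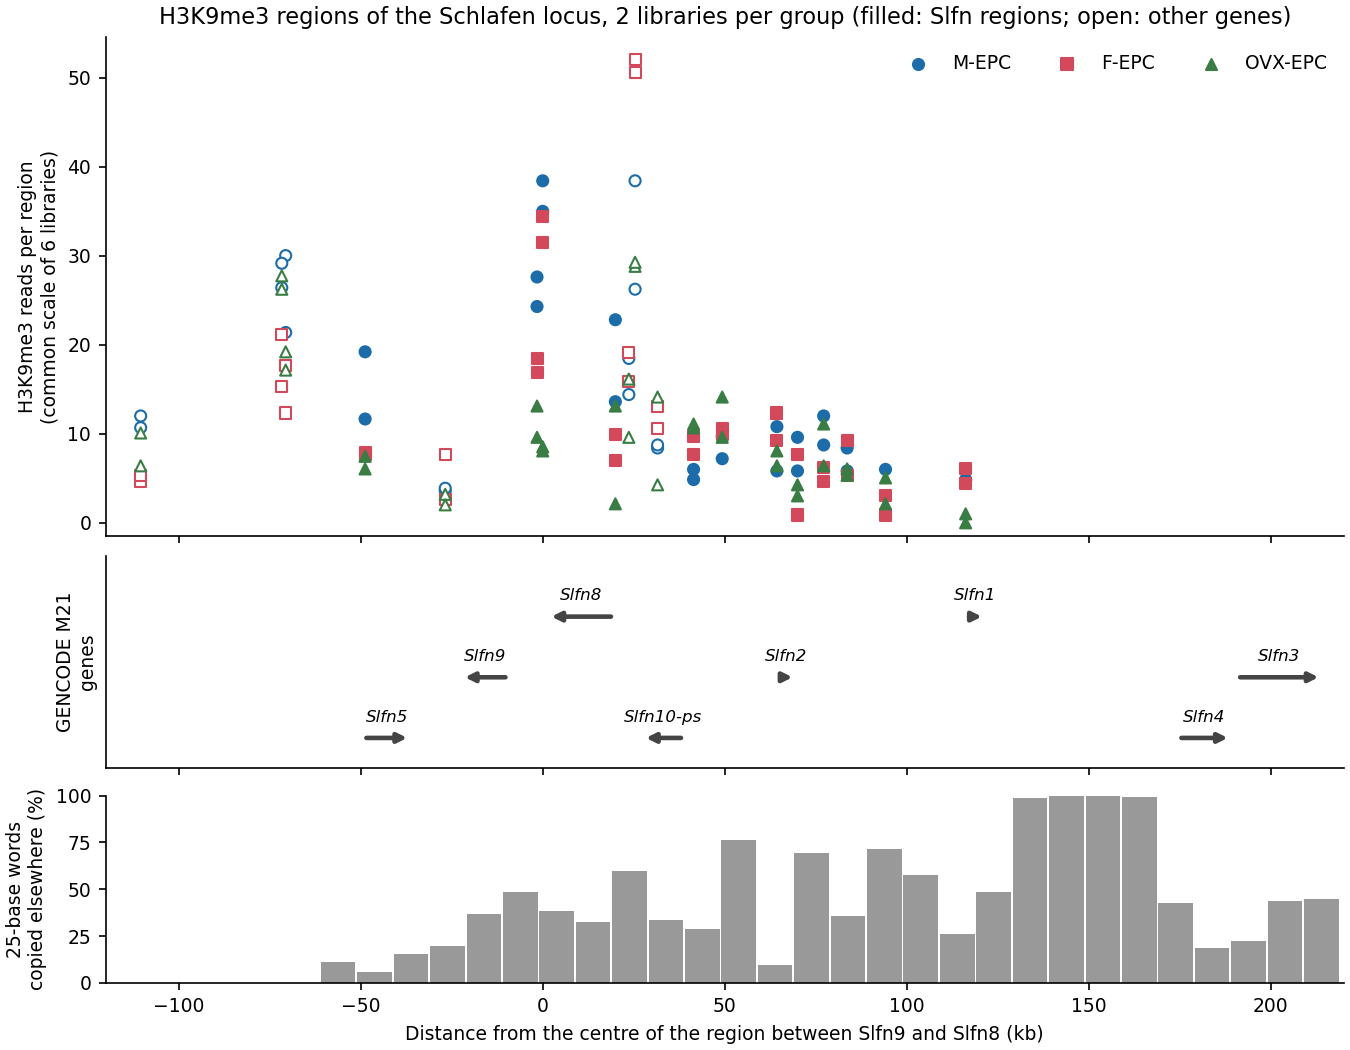
Top, H3K9me3 level (reads on the scale common to 6 libraries) of the 12 Slfn regions (filled) and 7 regions of other genes (open) against the distance in kb from the centre of the intergenic Slfn9 region, 1 point per library. Arrows are Slfn genes in their direction of transcription, and bars give the percentage of 25-base words with another copy in the genome per 10-kb bin from about 60 kb left of that centre on. At 0 kb the OVX-EPC points sit at 8.54 and 8.07 and the other 4 libraries between 31.4 and 38.4.

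At the partner of the intergenic Slfn9 region the OVX-EPC libraries did not stand below both other groups. It held 32 and 27 reads (M-EPC), 66 and 59 (F-EPC), and 27 and 29 (OVX-EPC). Its level was highest in F-EPC, at 51.3 ± 0.978, and stood at 32.3 ± 8.61 (M-EPC) and 29.0 ± 0.321 (OVX-EPC; SD, n = 2). The OVX-EPC libraries were below both F-EPC libraries and overlapped with M-EPC.

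None of the partner's differences passed the test over all regions. Its log2 fold change was -0.79 ± 0.254 in OVX-EPC against F-EPC (limma, unadjusted p = 0.0031, Benjamini-Hochberg adjusted p = 0.768), and -0.08 ± 0.293 in OVX-EPC against M-EPC (limma, adjusted p = 0.920). In F-EPC against M-EPC it was 0.68 ± 0.264 (limma, adjusted p = 0.145). Whether the pattern at the intergenic Slfn9 region would differ from its partner in further libraries was not tested, since that region was chosen for its values.

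**Figure D2:**
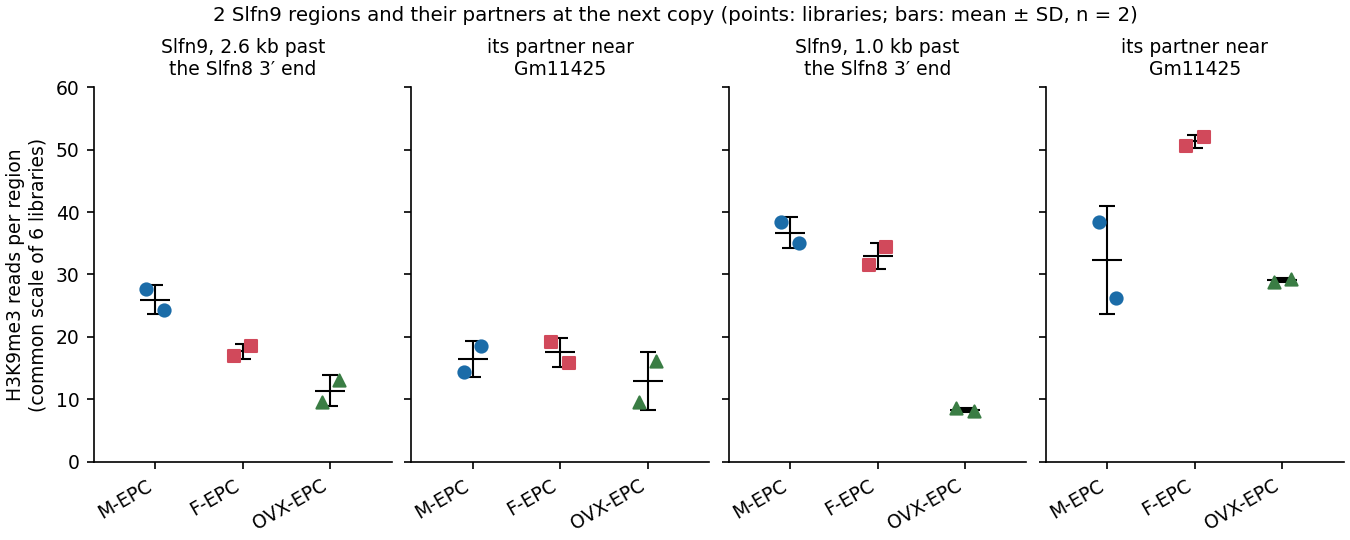
H3K9me3 level (reads on the scale common to 6 libraries) of both Slfn9 regions and their partners at the next copy, by group; points are libraries and bars the mean ± SD of 2 libraries. The third panel is the intergenic Slfn9 region, at 8.31 ± 0.328 (OVX-EPC), and the fourth is its partner, at 29.0 ± 0.321 in the same libraries.

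Reads of each pair were also divided between their copies within a library, a share that needs no scaling between libraries. The intergenic Slfn9 region took 50.0% and 57.1% of its pair's reads (M-EPC), 38.3% and 39.8% (F-EPC), and 22.9% and 21.6% (OVX-EPC). The 95% Wilson intervals were wide, from 12.1% to 39.0% for OVX-EPC replicate 1 and from 29.7% to 47.8% for F-EPC replicate 1. The groups did not overlap, with the order OVX-EPC, F-EPC and M-EPC from low to high, while the intervals of the OVX-EPC and F-EPC libraries did. The share reuses the reads that the region was chosen on. This favours a lower share in OVX-EPC than in F-EPC, so the share is a description only.

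For the neighbouring pair, the share was 65.7% and 56.8% (M-EPC), 46.8% and 53.8% (F-EPC), and 50.0% and 44.8% (OVX-EPC). These values overlapped between F-EPC and OVX-EPC. With 37.2% of its words shared between copies, this pair's reads could have been placed at either copy more often than those of the intergenic pair, and the effect of read placement was not tested.

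**Figure D3:**
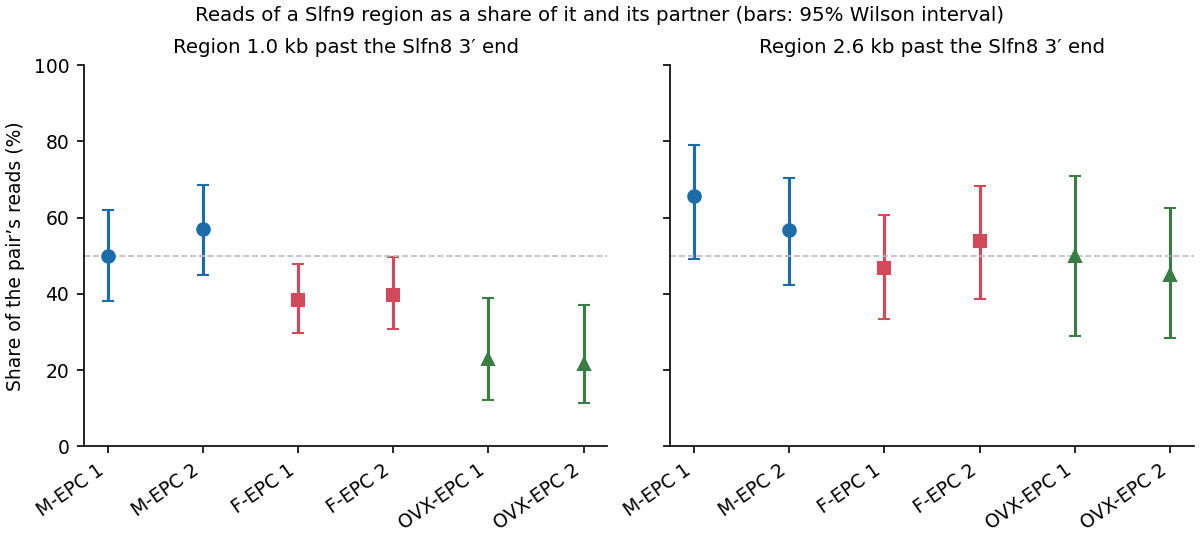
Percentage of a pair's reads that fell in the Slfn9 copy rather than in the partner near Gm11425, by library, with 95% Wilson intervals for counting error; the dashed line is an equal split. For the intergenic Slfn9 region (left) the shares run from 57.1% in M-EPC replicate 2 to 21.6% in OVX-EPC replicate 2, and for the neighbouring region (right) from 65.7% to 44.8%.

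Ovariectomized against intact females compares cells of the same sex with and without ovaries. Of the 12 Slfn regions, 5 passed the filter on low values (a value of at least 10 in at least 2 of the 4 libraries). The intergenic Slfn9 region was the one called at an adjusted p under 0.05, by choice, where 0.0127% of all regions tested were called. That call was lost with the replicate block, DESeq2, a stricter filter or without either F-EPC library. The intergenic Slfn9 region passed the filter through its F-EPC values alone (OVX-EPC 9.09 and 8.61), which favours a lower value in OVX-EPC. Of the other 4 tested, 0 were called by limma and 0 had an unadjusted p under 0.05 (6.22% of all). Among the other 11 regions, tested or not, 6 had lower and 5 higher values in OVX-EPC, while 51.2% of all covered regions were lower. Their median log2 fold change without the filter was -0.18, compared with -0.02 over all covered regions.

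The neighbouring Slfn9 region held 22 and 21 reads (F-EPC) and 9 and 13 (OVX-EPC). Its log2 fold change was -0.60 ± 0.355 (SE; limma, adjusted p = 0.828), 1.26 closer to 0 than that of the intergenic region. The groups did not overlap, and 15.8% of all regions tested in this comparison were lower without overlap.

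At Slfn8, whose product is a long Schlafen with the helicase-like domain, the region at the TSS (chr11:83020672-83021071) held 13 and 8 reads (F-EPC) and 2 and 13 (OVX-EPC). The OVX-EPC libraries lay on either side of the F-EPC libraries, and the log2 fold change of -0.50 ± 0.766 (limma, adjusted p = 0.953) turned to 0.60 without OVX-EPC replicate 1. Both Slfn10-ps regions had log2 fold changes above 0. That at chr11:83042158-83042557, 2 to 3 kb from the pseudogene's start by the authors' label, was 0.31 ± 0.438 and that at chr11:83050021-83050420, in distal intergenic sequence, was 0.18 ± 0.398 (limma, adjusted p = 0.944 and 0.979).

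Ovariectomized females against males differ both in sex and in ovariectomy, and this comparison reuses the OVX-EPC libraries. Beside the intergenic Slfn9 region, 5 Slfn regions passed the filter and 0 of them were called by limma, where 0.449% of all 16931 regions tested were called. At 3 of the 5 (Slfn5, the neighbouring Slfn9 region and Slfn8) values were lower in OVX-EPC without overlap, as at 31.0% of regions tested, and the unadjusted p was under 0.05, as at 16.1%. Slfn5 and the intergenic Slfn9 region passed the filter through their M-EPC values alone, which favours a lower value in OVX-EPC. Among the 11 regions, tested or not, 8 were lower and 3 higher, while 49.4% of all regions were lower. Their median log2 fold change was -0.22 without the filter, compared with 0.0099 over all regions.

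The neighbouring Slfn9 region held 23 and 25 reads (M-EPC) and 9 and 13 (OVX-EPC). Its log2 fold change was -1.09 ± 0.350 (SE; limma, unadjusted p = 0.0041, adjusted p = 0.162), so it did not pass the test over all regions, and it was the closest to passing among the Slfn regions that entered by name only. On the common scale its level was 26.0 ± 2.35 (M-EPC), 17.7 ± 1.16 (F-EPC) and 11.4 ± 2.49 (OVX-EPC; SD, n = 2). The 3 groups were thus ordered as at the intergenic region and did not overlap. At Slfn5 they were in the same order, but OVX-EPC (7.5 and 6.1) and F-EPC (7.7 and 7.9) nearly met. At the Slfn10-ps region chr11:83042158-83042557 M-EPC was lowest, while F-EPC and OVX-EPC had equal reads. The share of all regions with 3 groups apart was not computed, so these orders are not read as a trait of the cluster.

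Slfn5 encodes a long Schlafen that is found in the nucleus and can repress transcription. Its region (chr11:82951941-82952340) began 592 bp into the gene, in an exon, and held 16 and 12 reads (M-EPC), 10 and 9 (F-EPC) and 7 and 6 (OVX-EPC). The antisense transcript Slfn5os covers the same bases, and CUT&Tag reads carry no strand of transcription. The level was 15.4 ± 5.34 (M-EPC), 7.80 ± 0.186 (F-EPC) and 6.76 ± 1.00 (OVX-EPC). M-EPC was the highest group, and F-EPC and OVX-EPC lay close together, with a log2 fold change of -0.18 ± 0.523 between them without the filter (limma, adjusted p = 0.994). The log2 fold change was -0.999 ± 0.467 in OVX-EPC against M-EPC (limma, adjusted p = 0.293) and -0.86 ± 0.402 in F-EPC against M-EPC (limma, adjusted p = 0.205).

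The Slfn8 promoter region held 19 and 14 reads in M-EPC. In OVX-EPC against M-EPC its log2 fold change was -1.43 ± 0.541 (limma, unadjusted p = 0.013, adjusted p = 0.219). The size rested on single libraries: it was -2.50 without OVX-EPC replicate 2 (limma, adjusted p = 0.0204) and -0.36 without OVX-EPC replicate 1 (limma, adjusted p = 0.799), within a range of adjusted p over all alternatives of 0.0204 to 0.799.

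At both Slfn10-ps regions M-EPC had the lowest mean level. The region chr11:83042158-83042557 held 5 and 5 reads (M-EPC), 10 and 11 (F-EPC) and 10 and 11 (OVX-EPC). F-EPC and OVX-EPC thus differed at this region only through their size factors. Its log2 fold change in OVX-EPC against M-EPC was 0.93 ± 0.589 (limma, adjusted p = 0.428). In this comparison it passed the filter through its OVX-EPC values alone (10.1 and 10.4), which favours a higher value in OVX-EPC. Levels at the distal Slfn10-ps region were 8.46 ± 1.78 (M-EPC), 10.3 ± 0.429 (F-EPC) and 11.9 ± 3.20 (OVX-EPC; SD, n = 2), and OVX-EPC overlapped with both other groups on this scale.

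Females against males compares intact animals of both sexes. Of the 6 Slfn regions that passed the filter, 0 were called by limma, against 1.79% of 8139 regions tested, and 2 had an unadjusted p under 0.05 (22.8% of regions tested). edgeR and DESeq2 on the recovered reads also called 0 of the Slfn regions. The 2 at an unadjusted p under 0.05 were Slfn5, given above, and the Slfn8 promoter region, with a log2 fold change of -0.99 ± 0.390 (limma, adjusted p = 0.149). Here too Slfn5 passed the filter through its M-EPC values alone, which favours a lower value in F-EPC. Leaving out M-EPC replicate 2 gave -1.34 at Slfn8 with an adjusted p of 0.0496 by limma, within a range over the alternatives of 0.0496 to 0.965. Over all 12 regions 7 were lower and 5 higher in F-EPC, while 47.1% of all covered regions were lower, both without the filter. The 12 had a median log2 fold change of -0.29 without the filter, compared with 0.05 over all covered regions.

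**Figure D4:**
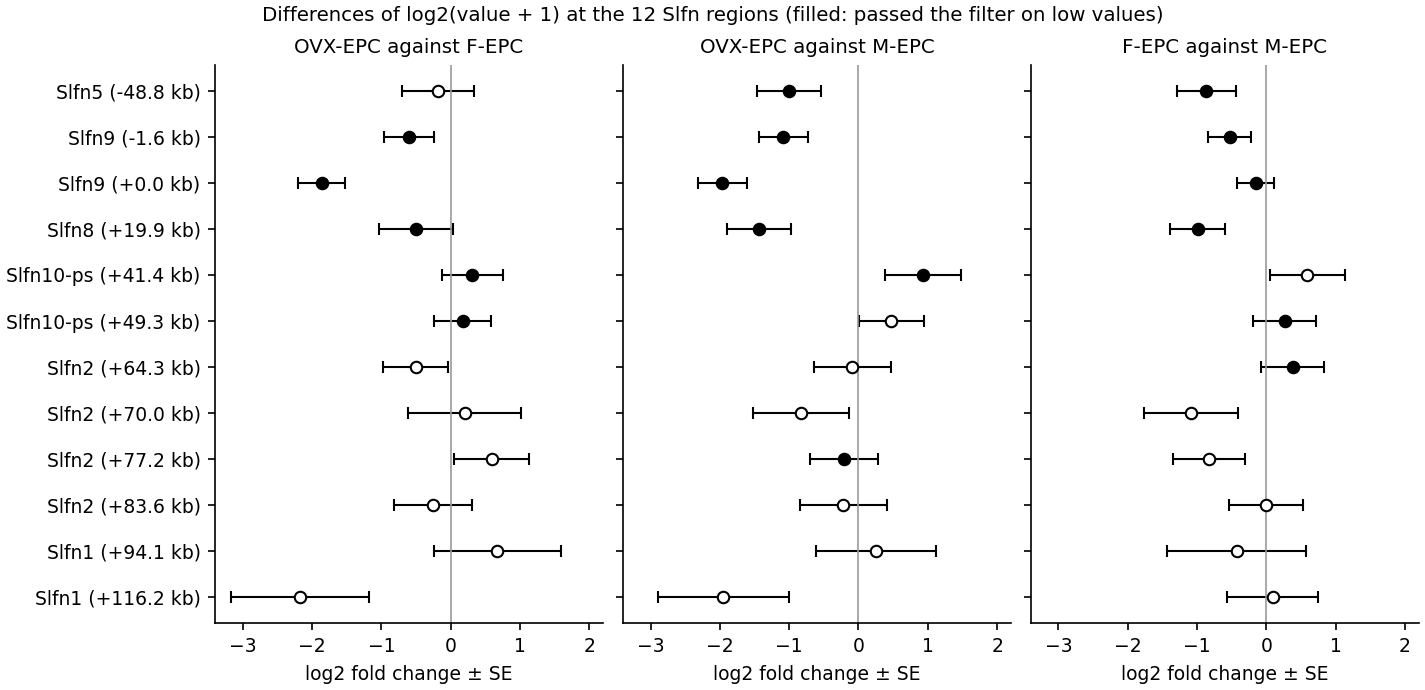
Log2 fold change ± SE (limma without the filter on low values) of the 12 Slfn regions in the 3 comparisons, in order along the chromosome, with the distance of each region from the intergenic Slfn9 region in kb. Filled points passed the filter. The intergenic Slfn9 region stands at -1.86 and -1.96 in the left and middle panels and at -0.15 in the right panel.

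Slfn2, a short Schlafen without the helicase-like domain, had 4 regions with few reads and no ordering of groups common to them. Its promoter region (chr11:83065042-83065441, across the TSS) held 9 and 6 reads (M-EPC), 12 and 14 (F-EPC) and 6 and 8 (OVX-EPC), and OVX-EPC overlapped with M-EPC. The region at chr11:83070697-83071096, labelled distal intergenic, began 19 bp past the 3′ end of Slfn2, in an exon of Gm20234. It held 8 and 6 reads (M-EPC), 10 and 1 (F-EPC), and 4 and 3 (OVX-EPC). The remaining pair of regions lay 7206 and 13652 bp past the end of the gene and held 5 to 12 reads in every library.

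Only 1 of the 4 Slfn2 regions passed the filter in OVX-EPC against M-EPC and 1 in F-EPC against M-EPC. They had log2 fold changes of -0.21 ± 0.502 and 0.38 ± 0.449 (limma, adjusted p = 0.872 and 0.633). Without the filter, the log2 fold changes of the 4 regions ran from -1.09 to 0.59 over the 3 comparisons, with SEs of 0.457 to 0.817, and the lowest adjusted p by limma was 0.509.

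Slfn1, the founding member of the family and also a short Schlafen, had few reads at both of its regions. The region at its promoter (chr11:83116876-83117275) began 27 bp past the TSS and held 4 and 5 reads (M-EPC), 8 and 5 (F-EPC), and 0 and 1 (OVX-EPC). The OVX-EPC libraries were below all others, with 1 read in sum (exact 95% Poisson interval 0.0253 to 5.57) compared with 9 (4.12 to 17.1) and 13 (6.92 to 22.2). It did not reach the filter in any comparison. In the fit without the filter its difference was -2.18 ± 0.994 against F-EPC (limma, unadjusted p = 0.0285, adjusted p = 0.991) and -1.95 ± 0.945 against M-EPC (limma, unadjusted p = 0.0386, adjusted p = 0.456). The other Slfn1 region, upstream at chr11:83094870-83095269, held 1 to 5 reads in every library, with overlap between all groups.

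Reads were also summed over the 11 Slfn regions other than the intergenic Slfn9 region. On the common scale the sums were 134 and 96.2 (M-EPC), 92.0 and 83.7 (F-EPC), and 64.0 and 91.8 (OVX-EPC). The groups overlapped between F-EPC and OVX-EPC, and the means were 115 ± 27.1, 87.9 ± 5.87 and 77.9 ± 19.7 (SD, n = 2). The intergenic region alone made up 24.4% ± 3.14 of all Slfn reads (M-EPC), 27.3% ± 2.57 (F-EPC) and 9.92% ± 2.60 (OVX-EPC).

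Promoter sequence could be compared with the mark at Slfn5, Slfn8, Slfn2 and Slfn1, the 4 genes with a region within 1 kb of the start. The Slfn8 region was 84.0% identical over 369 bp to the promoter of Slfn9 (chr11:82991695-82992057), where no region was present. RefSeq promoters (GRCm38.p6, 300 bases around each start) were searched on both strands for the interferon-stimulated response element, written as GAAA, any 2 bases, GAAA. It was found in 4 of the 9 entries of Slfn genes, at Slfn5, Slfn9 and both starts of Slfn8, and in 3.44% of all 32851 promoters. The 2 Slfn8 entries overlap and hold the same match, so that site is counted for both. The Slfn9 match has the same letters and lies in the sequence alike between Slfn8 and Slfn9, so the entries are not independent. A match describes letters only. The promoters of Slfn8, with the mark, and of Slfn9 and Slfn5 are printed 5′ to 3′ on the strand of the gene, with the match in capitals.

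Slfn8 promoter, chr11:83020761-83021060, minus strand: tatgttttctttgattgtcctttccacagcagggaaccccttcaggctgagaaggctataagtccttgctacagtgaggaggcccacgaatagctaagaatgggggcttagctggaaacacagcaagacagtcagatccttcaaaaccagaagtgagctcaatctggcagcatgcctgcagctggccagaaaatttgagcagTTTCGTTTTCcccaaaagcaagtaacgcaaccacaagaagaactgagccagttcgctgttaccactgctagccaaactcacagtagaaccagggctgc

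Slfn9 promoter, chr11:82991781-82992080, minus strand: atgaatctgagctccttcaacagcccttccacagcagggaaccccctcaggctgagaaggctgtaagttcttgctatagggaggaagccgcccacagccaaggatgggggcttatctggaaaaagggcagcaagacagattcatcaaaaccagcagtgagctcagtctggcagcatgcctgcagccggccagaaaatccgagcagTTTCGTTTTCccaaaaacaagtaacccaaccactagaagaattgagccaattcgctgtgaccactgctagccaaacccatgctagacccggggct

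Slfn5 promoter, chr11:82951852-82952151, plus strand: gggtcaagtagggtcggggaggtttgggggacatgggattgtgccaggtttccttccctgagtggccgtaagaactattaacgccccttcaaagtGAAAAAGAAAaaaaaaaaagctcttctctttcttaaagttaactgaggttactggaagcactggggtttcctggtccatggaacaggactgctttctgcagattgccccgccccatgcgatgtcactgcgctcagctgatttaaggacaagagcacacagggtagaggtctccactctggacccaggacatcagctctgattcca

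The Slfn8 region covered all 300 bases of the Slfn8 promoter, and the Slfn5 region overlapped 211 of the Slfn5 promoter. Slfn2, Slfn1, Slfn4, Slfn3 and Slfn14 had no match in their promoters.

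Slfn4 and Slfn3, of intermediate length, and Slfn14, a long member known as a ribosome-associated ribonuclease, had no region to compare. Slfn4 and Slfn3 lay in a stretch of 121.3 kb (chr11:83117276-83238591) with 0 regions, in which 56.0% of 25-base words had another copy in the genome. From the first to the last Slfn region, a stretch of 165.3 kb with 16 regions, the figure was 40.1%. Within the genes themselves it was 17.1% for Slfn4 and 35.5% for Slfn3. For Slfn14 it was 5.54%. The part of read placement in the lack of regions was not tested.

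The 5 regions most like the intergenic Slfn9 region were found by Pearson's r of log2(value + 1) over the 6 libraries, among 8694 covered regions with a value of at least 10 in at least 2 libraries. They were assigned to Lpp (r = 0.989), Gm24863 (0.988), Ifi214 (0.979), Gm11698 (0.975) and Marc2 (0.974). At Lpp, for example, the level was 19.9 ± 0.688 (M-EPC), 18.8 ± 1.64 (F-EPC) and 9.34 ± 0.369 (OVX-EPC). Pearson's r does not measure the size of a difference. At Ifi214 the level was 11.8 ± 0.243 (M-EPC), 11.9 ± 0.591 (F-EPC) and 9.34 ± 0.369 (OVX-EPC), a smaller difference. With 6 libraries that share their depth across regions, 77 regions (0.886%) had an r above 0.9, and these values are a description only. The neighbouring Slfn9 region ranked 104 (r = 0.880), Slfn5 had an r of 0.65 and Slfn8 of 0.53, while both Slfn10-ps regions were negative (-0.75 and -0.60).

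Other genes of the interferon pathway, from lists of signalling genes and of induced genes, were read in the same fits. Of the 14 signalling genes (receptors, Janus kinases, STATs and interferon regulatory factors), 3, 9 and 7 regions were tested in the comparisons in the order above. None (0) was called by limma, with 1, 3 and 4 at an unadjusted p under 0.05, where the share of all regions tested was 6.22%, 16.1% and 22.8%. Of the 34 induced genes, 9, 16 and 11 regions were tested and 0, 2 and 0 called by limma, with 1, 9 and 8 at an unadjusted p under 0.05. The regions are not spread evenly over the list, and 5 of those tested in each comparison belonged to Ifi213. Over all regions tested 0.0127%, 0.449% and 1.79% were called.

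Both called regions belonged to Iigp1, an interferon-induced GTPase, and were lower in OVX-EPC than in M-EPC. Their log2 fold changes were -3.04 ± 0.504 and -2.51 ± 0.368 (limma, adjusted p = 0.0015 and 3.4e-04). The former held 36 and 21 reads (M-EPC) and 3 and 2 (OVX-EPC), and the latter 37 and 41 (M-EPC) and 4 and 9 (OVX-EPC). Both passed the filter through their M-EPC values alone, which favours a lower value in OVX-EPC. F-EPC was not compared at these regions, because the reads of F-EPC replicate 1 end before the chromosome of Iigp1. The median log2 fold change of the induced list was 0.36, -0.82 and -0.78 in the 3 comparisons, beside 0.03, -0.16 and -0.19 over all regions tested. The median of OVX-EPC against M-EPC includes regions at Iigp1, Igtp, Rsad2 and Ifi211 that passed the filter through M-EPC alone. That of F-EPC against M-EPC includes such regions at Rsad2 and Ifi211. This favours lower medians in both comparisons.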

How the data were processed

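H3K9me3 CUT&Tag was run on 6 EPC libraries in 3 groups of 2. Per the study's methods, the authors aligned paired 25-base reads to mm10 with Bowtie2 (-N 1 -X 1000), removed duplicates with Picard and reads with a mapping quality under 10, and used HOMER, MACS and ChIPseeker. The submitters' processing notes name BWA and MACS2 instead. A mapping quality limit removes reads that fit several copies, which bears on duplicated genes such as these. The deposited files are tables of 2 groups at a time, in which the authors give each library's signal at every region. Columns with their own fold changes and p-values were not used.

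Multiplied by a constant for its library, every signal became whole reads (100% within 0.01 reads). log2(signal + 1) was fitted with limma 3.58.1 (trend, no covariates) in R 4.3.3, with Benjamini-Hochberg adjustment over all regions with at least 10 in at least 2 of 4 libraries. On the recovered reads edgeR 4.0.16 called 1, 139 and 124 regions in OVX-EPC against F-EPC, OVX-EPC against M-EPC and F-EPC against M-EPC, compared with 1, 76 and 146 by limma. DESeq2 1.42.0 was a further alternative. The common scale used median-of-ratios factors from 23477 regions with reads in all 6 libraries. The fits were tested on simulated data. The members and gene lists were chosen with earlier results of these data known, and the rule for named genes took all Slfn regions, regions of other genes in or near the cluster, the 5 regions most alike, 2 interferon lists and a list of cell markers. Part of the marker list is not reported here. No label says that replicate numbers pair libraries, and the replicate differences of the groups had correlations of -0.03, -0.02 and -0.05. With few reads per region, counting error brings such correlations near 0, so they do not show whether libraries were paired.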

Additional observations from a re-analysis of the deposited data

Results flagged for a closer look

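The intergenic Slfn9 region changed differently from M-EPC in OVX-EPC and in F-EPC: its signal was lower in both OVX-EPC libraries than in every M-EPC and F-EPC library, while F-EPC lay close to M-EPC. The difference between these changes is the direct difference of OVX-EPC and F-EPC, -1.86 on the log2(value + 1) scale, which is the value the region was chosen on. No explanation was tested.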

How the results depend on the processing

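The log2 fold change of the intergenic Slfn9 region kept its direction under every alternative in both OVX-EPC comparisons. It ran from -1.97 to -1.80 against F-EPC and from -2.03 to -1.81 against M-EPC. The alternatives reuse the libraries on which the region was chosen, so a kept direction was favoured in advance and is no independent support. Against F-EPC it lost its call with at least 30 in at least 2 libraries (-1.86), with DESeq2 (-1.96), with the replicate number as a block (-1.86) and without either F-EPC library, in a range of -1.93 to -1.80 over libraries left out. Against M-EPC it lost its call with DESeq2 (-1.93) and without either M-EPC library (range -2.01 to -1.92). In F-EPC against M-EPC it reversed to 0.055 with TMM factors, which moved the median of all regions from -0.19 to 0.02, and in OVX-EPC against M-EPC from -0.16 to 0.0077. Other reversals came from leaving out 1 library: Slfn8 in OVX-EPC against F-EPC (range -1.60 to 0.60), the distal Slfn10-ps region in the same comparison (-0.082 to 0.44), the Slfn2 region 7206 bp past the gene in OVX-EPC against M-EPC (-0.55 to 0.14) and the Slfn2 promoter in F-EPC against M-EPC (-0.015 to 0.78). Counts of differing regions moved more. Against 1 in OVX-EPC against F-EPC, there were 0 with the stricter filter, 0 with DESeq2, 0 with the replicate block (477 at an unadjusted p under 0.05), 5076 with all deposited regions and 0 to 15 with 1 library left out. Against 76 (8 higher, 68 lower) in OVX-EPC against M-EPC, there were 145 without a filter, 123 with the stricter one, 40 with TMM (10 higher, 30 lower), 21 in covered regions, 139 with edgeR (66 higher, 73 lower), 8 with DESeq2, 103 with the replicate block and 15 to 199 with 1 library left out. Against 146 (14 higher, 132 lower) in F-EPC against M-EPC, there were 231 without a filter, 22 with TMM (5 higher, 17 lower), 5684 with all deposited regions, 4 with DESeq2, 166 with the replicate block and 95 to 647 with 1 library left out. All deposited regions count absent F-EPC reads as 0. The block changed no other Slfn call. A single library left out leaves its group with 1 sample, whose spread is assumed to be that of the other group. For the rest the cause was not tested.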

Other observations

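Among the 7 regions of other genes in and around the cluster, 5, 4 and 6 were tested in the comparisons in the order above. None was called in any comparison by limma, with 1, 0 and 3 at an unadjusted p under 0.05. The share of all regions tested under that p was 6.22%, 16.1% and 22.8%. Calls by edgeR and DESeq2 were not counted for these 7. Apart from the partners near Gm11425, those with the highest H3K9me3 level were a pair at Unc45b, a myosin chaperone left of Slfn5. The first (chr11:82929058-82929457) held 22 and 30 reads (M-EPC), 20 and 24 (F-EPC), and 26 and 26 (OVX-EPC). Its log2 fold change was 0.57 ± 0.308 in OVX-EPC against F-EPC (limma, adjusted p = 0.804), a sign opposite to that of the intergenic Slfn9 region. The second Unc45b region had a log2 fold change of -0.74 ± 0.336 in F-EPC against M-EPC (limma, unadjusted p = 0.037, adjusted p = 0.194). The region at Rad51d, a homologous recombination gene, had a log2 fold change of -1.06 ± 0.512 in F-EPC against M-EPC (limma, adjusted p = 0.218). The Rad51d region passed the filter through its M-EPC values alone, which favours a lower value in F-EPC.

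Of the 12 Slfn regions, GC content ran from 36.5% in the distal Slfn10-ps region to 59.2% in the upstream Slfn1 region. Repeat-masked bases made up 52.5% of the intergenic Slfn9 region and 74.8% of the neighbouring one.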
